A study of Sus scrofa with 8 samples.

Results

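The genes described here are the pig topoisomerases TOP1, TOP1MT, TOP2A, TOP2B, TOP3A and TOP3B, and the tyrosyl-DNA phosphodiesterases TDP1 and TDP2, which repair the lesions that topoisomerases can leave. They were taken by gene name from a table of raw read counts per gene. All 8 names were found once each, among 31014 genes, and all 8 passed the filter on low counts. The libraries came from heart tissue of wild-type (WT) miniature pigs, 3 given vehicle and 5 given doxorubicin, an anthracycline used against cancer. The sources used here do not give the dose, schedule, age, sex or the part of the heart. Nor do the labels say that the samples of a group came from separate animals, so the spread that p-values rest on is that between these samples and may be technical.

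Topoisomerases cut DNA, pass strands through the break and reseal it, which relieves the twisting that replication and transcription build up. While the break is open, a tyrosine of the enzyme is bonded to the DNA end. Doxorubicin is a poison of the type II enzymes, TOP2A and TOP2B, and holds them in that state. Dividing cells make TOP2A, whereas TOP2B is also made in cells that no longer divide, such as cardiomyocytes, and it is known as a mediator of anthracycline damage in the mouse heart. When a trapped enzyme is degraded, TDP2 removes the remaining peptide from the 5′ end left by a type II enzyme, and TDP1 removes the one left on the 3′ end by TOP1.

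Library totals ran from 16105242 to 18267178 counts. Doxorubicin 5 was least like its group: its correlation with the other doxorubicin libraries averaged 0.912, against 0.941 to 0.956 for doxorubicin 1 to 4. Of 10 cardiomyocyte markers, 0 rose, 1 fell and 9 did not pass, and their summed level was 66600 to 71700 CPM (counts scaled to a common library size) in vehicle and 36400 to 66600 after doxorubicin, lowest in doxorubicin 5. The summed level of 8 fibroblast markers was 1240 to 1440 CPM in vehicle and 2470 to 31400 CPM after doxorubicin, highest in doxorubicin 5. Counts of members higher, lower and not passing were 4, 1 and 3 for fibroblasts, 5, 0 and 3 for macrophages, 5, 0 and 2 for T and NK cells, 2, 1 and 3 for smooth muscle and pericytes and 0, 1 and 7 for endothelium. They were 0, 0 and 5 for Schwann cells and neurons, 0, 2 and 1 for the 3 tested adipocyte markers and 0, 0 and 2 for the 2 tested erythroid markers. No B cell marker had enough reads to be tested. Over all tested genes 13.6% were higher and 11.3% lower. In bulk tissue, fewer cells of a type and less RNA per cell cannot be told apart.

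In vehicle hearts TOP2B was the most abundant of the 8 messages. Levels between genes are given as CPM per kilobase of the transcript model length in the deposited table. On that scale TOP2B was at 25.1 ± 1.42 (SD, n = 3), TDP2 at 16.6 ± 1.95, TOP1 at 9.58 ± 1.09 and TOP3A at 5.42 ± 0.482. TOP3B followed at 3.67 ± 0.181 and TOP1MT at 2.96 ± 0.685, with TOP2A at 0.544 ± 0.112 and TDP1 at 0.377 ± 0.0620 CPM per kilobase. Among neighbours in this order, the libraries of TOP3B and TOP1MT overlapped and those of each other pair did not. After doxorubicin the order of the means was the same, from 18.1 ± 1.65 for TOP2B (SD, n = 5) to 0.355 ± 0.0693 for TDP1. There the lowest TOP2B library (16.3 CPM per kilobase) was below the highest of TDP2 (17.1), and TOP1 overlapped with TOP3A (6.20 to 8.26 against 5.71 to 6.86). The lowest TOP1MT library (2.12 in doxorubicin 3) was also below the highest of TOP2A (2.20 in doxorubicin 5).

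The type II enzymes moved in opposite directions after doxorubicin. TOP2B (Sscrofa11.1, as for each position here, chromosome 13, 12507738 to 12575042) fell to 0.721-fold of its vehicle level, and TOP2A (chromosome 12, 22001300 to 22028452), the form of dividing cells, rose 2.50-fold. They were the only 2 of the 8 genes past the threshold, an adjusted p under 0.05 by the edgeR quasi-likelihood test with Benjamini-Hochberg adjustment over all 14938 tested genes. Across those genes 24.9% passed, 13.6% higher and 11.3% lower, so a share of 2 in 8 is near the background.

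TOP2B was read at 137, 122 and 130 CPM in vehicle 1 to 3. After doxorubicin it was at 103, 84.9, 96.6, 84.1 and 98.2 CPM in libraries 1 to 5. Every doxorubicin library was below every vehicle library, and the SD was 5.64% of the mean in vehicle and 9.14% after doxorubicin. Its log2 fold change was −0.47 (SE 0.14, 95% interval −0.78 to −0.16, adjusted p = 0.0351), from 130 ± 7.31 to 93.4 ± 8.54 CPM (SD, n = 3 and n = 5). The count of TOP2B reads was 1622 to 2068 per library, the deepest of the 8 genes. Among all tested genes 22.0% had a lower log2 fold change.

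For TOP2A the values were 2.64, 2.84 and 3.84 CPM in vehicle, from 37, 41 and 54 reads. In doxorubicin 1 to 5 they were 5.73, 4.14, 5.70, 10.7 and 12.6 CPM, from 105, 82, 122, 207 and 251 reads. The groups did not overlap, and doxorubicin 4 and 5 were far above doxorubicin 1 to 3, so the spread of TOP2A in the doxorubicin group (SD 47.0% of the mean) was the widest of the 8 genes in either group. The log2 fold change was 1.32 (SE 0.40, 95% interval 0.43 to 2.21, adjusted p = 0.0387), from 3.11 ± 0.641 to 7.77 ± 3.65 CPM. A lower value was found for 89.3% of tested genes.

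**Figure D1:**
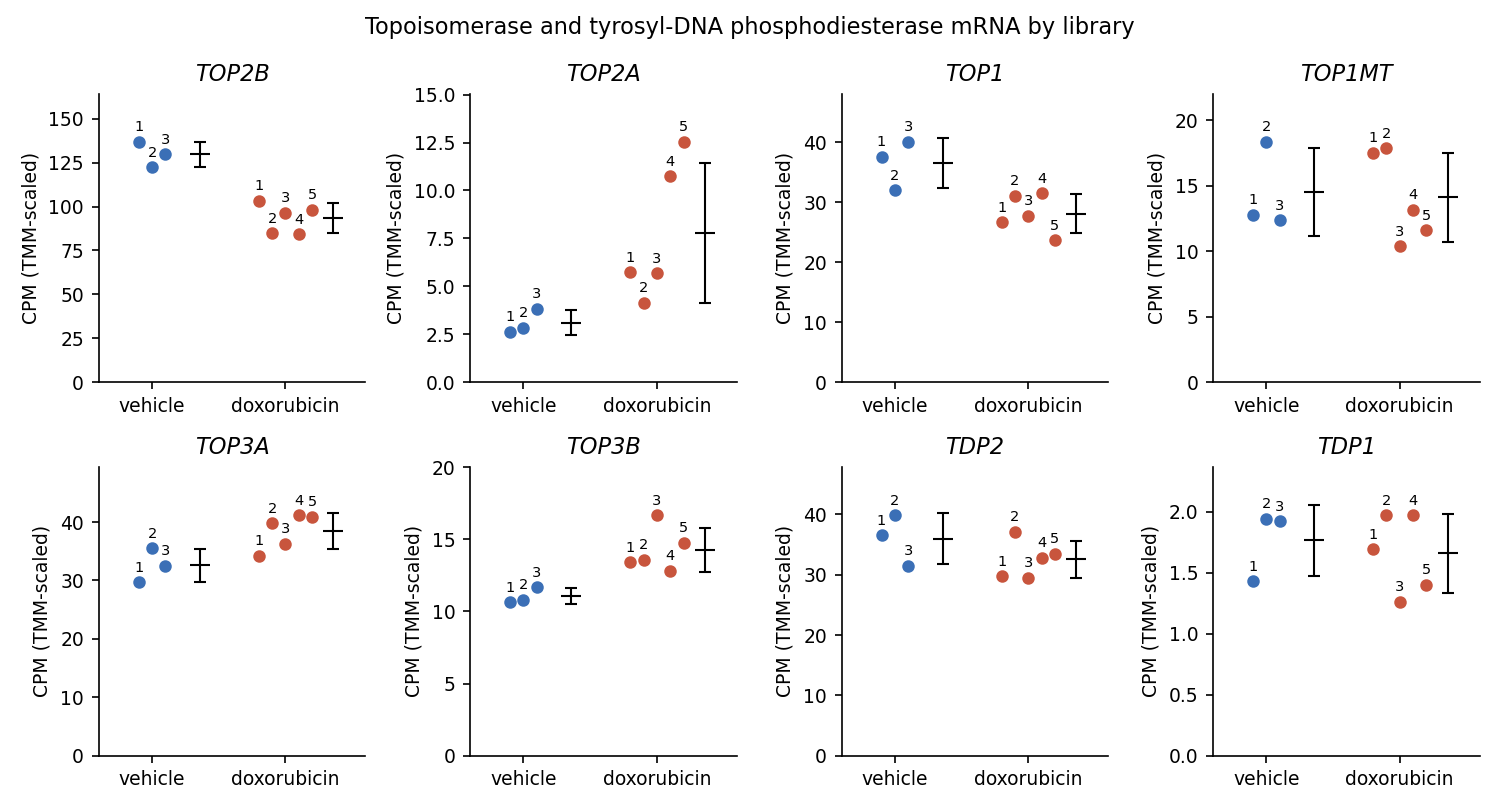
Level of each of the 8 genes in CPM (TMM-scaled; linear axes from 0) for 3 vehicle libraries (blue) and 5 doxorubicin libraries (red), with replicate numbers beside the points and mean ± SD in black. TOP2B lies lower and TOP2A higher in each doxorubicin library than in any vehicle library, with TOP2A highest in doxorubicin 4 and 5.

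Without doxorubicin 5 both genes still passed (TOP2B −0.49, adjusted p = 0.0190; TOP2A 1.08, adjusted p = 0.0384). Each call rested on several single libraries. TOP2B did not pass without vehicle 1 (adjusted p = 0.125), vehicle 2 (0.0682), vehicle 3 (0.113) or doxorubicin 2 (0.0803), 3 (0.0562) or 4 (0.0668), and TOP2A did not pass without vehicle 1 (0.142), vehicle 2 (0.114), vehicle 3 (0.0902) or doxorubicin 4 (0.0653). The sign of each was kept in all 18 alternatives, with TOP2B from −0.56 to −0.12 and TOP2A from 0.69 to 1.67.

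The balance between the 2 enzymes can be read within each library, where scaling between libraries has no part. Of the reads per base of TOP2A and TOP2B together, TOP2A made up 1.72%, 2.06% and 2.61% in vehicle 1 to 3. It made up 4.77%, 4.23%, 5.06%, 10.3% and 10.4% in doxorubicin 1 to 5. TOP2B therefore remained the main type II message in all 8 libraries, while its share was lower in each doxorubicin library. The ratio of TOP2A to TOP2B reads was 3.20-fold higher after doxorubicin (difference of mean log2 ratios 1.68, from −5.38 ± 0.306 to −3.70 ± 0.682; exact two-sided permutation p = 0.0357, n = 3 and n = 5). This is the smallest p that 56 splits of 8 libraries allow. Adjusted over the 4 ratios tested here it was 0.143 and did not pass. With so few libraries, a single ratio at the smallest p cannot pass after that adjustment, so not passing decides nothing here.

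Some markers of other cells and of division were also higher after doxorubicin, where 13.6% of all tested genes passed as higher. Of 15 condensin and mitotic genes 2 passed, MKI67 and CDK1, while 4 of the 15 had negative values that did not pass. The proliferation gene MKI67 was at 1.86, 2.29 and 1.92 CPM in vehicle and at 5.95, 6.77, 7.10, 12.6 and 7.50 CPM after doxorubicin. CDK1, the kinase that starts mitosis, was at 0.643, 0.555 and 0.782 CPM and then at 1.53, 1.36, 2.05, 3.11 and 5.0 CPM. Both were above their vehicle range in each doxorubicin library, MKI67 highest in doxorubicin 4 and CDK1 in doxorubicin 5. Summed macrophage markers (8 genes, of which 8 had positive fold changes) were at 140 to 189 CPM in vehicle and at 241, 441, 528, 452 and 714 CPM in doxorubicin 1 to 5. Summed T and NK cell markers (7 of 7 positive) were at 6.72 to 9.60 CPM against 13.2, 24.7, 31.6, 27.9 and 22.6 CPM. That sum was highest in doxorubicin 3, where TOP2A was at 5.70 CPM, and TOP2A was highest in doxorubicin 5 (12.6 CPM). The fibroblast sum was lowest of the doxorubicin libraries in doxorubicin 4 (2470 CPM), where TOP2A was high, and highest in doxorubicin 5. The part of these cells in the TOP2A result was not tested.

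**Figure D2:**
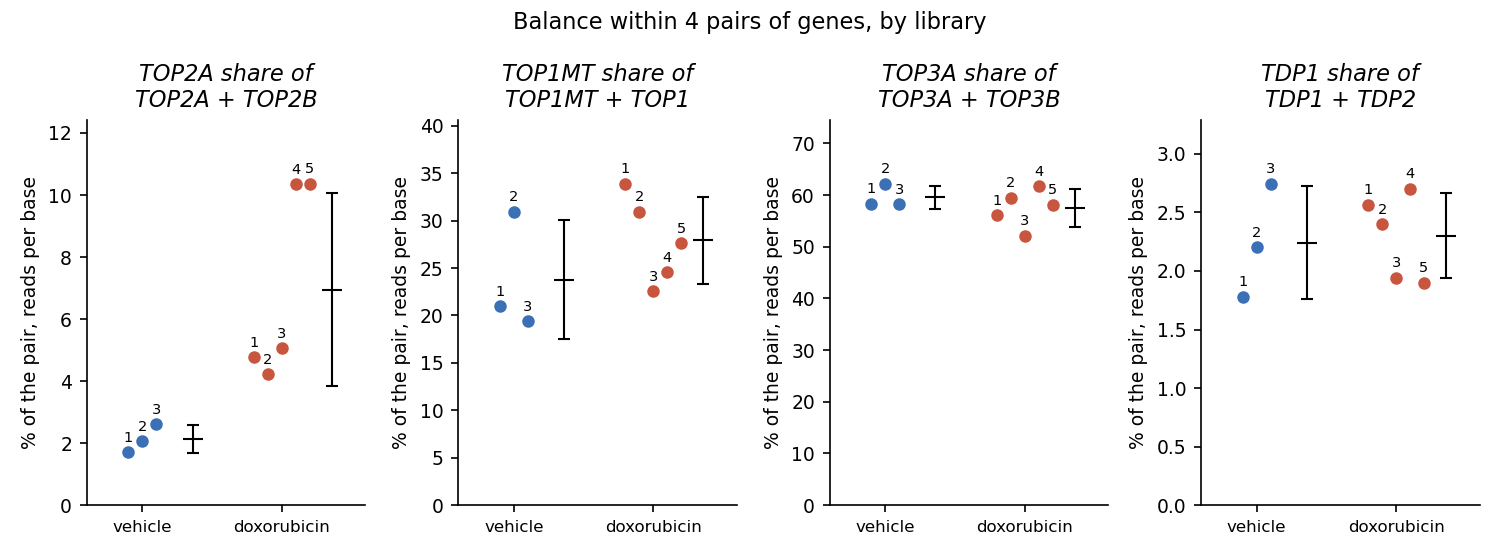
Share of the first gene in the reads per base of each pair, in percent (linear axes from 0), for 3 vehicle libraries (blue) and 5 doxorubicin libraries (red), with replicate numbers and mean ± SD in black. The TOP2A share is at 1.72% to 2.61% in vehicle and at 4.23% to 10.4% in the treated hearts, while the groups overlap in the other 3 pairs.

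The type I enzymes that nick a single strand and swivel it, nuclear TOP1 and mitochondrial TOP1MT, did not pass. TOP1 (chromosome 17, 43710270 to 43799700) relieves supercoils ahead of RNA polymerase. It was at 37.6, 32.0 and 40.1 CPM in vehicle and at 26.6, 31.1, 27.7, 31.5 and 23.7 CPM after doxorubicin. The highest doxorubicin library lay just below the lowest vehicle library, so the groups did not overlap. The log2 fold change was −0.38 (SE 0.15, 95% interval −0.71 to −0.05), with an unadjusted p of 0.0297 and an adjusted p of 0.0866 by edgeR. The interval runs from 0.611-fold to 0.969-fold, which includes a fall as large as that of TOP2B. A protein-coding gene (LOC110257392, 9 to 36 reads) and a lncRNA gene (LOC110257501, 12 to 23 reads) overlap TOP1 on the other strand, with few reads beside the 461 to 615 of TOP1.

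TOP1MT (chromosome 4, 1134179 to 1188149) does the same task on mitochondrial DNA. Its level was 12.8, 18.4 and 12.4 CPM in vehicle and 17.5, 17.9, 10.4, 13.2 and 11.6 CPM after doxorubicin. Vehicle 2 and doxorubicin 1 and 2 were high and the other libraries low, so the groups overlapped throughout. The log2 fold change was −0.04 (SE 0.24, adjusted p = 0.913 by edgeR), and its interval from 0.674-fold to 1.4-fold leaves room for a moderate change in either direction. The sign turned in 6 of 18 alternatives. The ratio of TOP1MT to TOP1 reads did not pass (difference of mean log2 ratios 0.33, exact permutation p = 0.250, adjusted p = 0.50, n = 3 and n = 5).

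The type IA enzymes, TOP3A and TOP3B, pass one strand through another. TOP3A resolves joined DNA molecules with the BLM helicase, also in mitochondria, and TOP3B can act on RNA as well as DNA. TOP3B (chromosome 14, 50020412 to 50037854) was at 10.6, 10.8 and 11.7 CPM in vehicle and at 13.4, 13.6, 16.7, 12.8 and 14.8 CPM after doxorubicin. All 5 doxorubicin libraries were above all 3 vehicle libraries. The log2 fold change of 0.37 (SE 0.16, 95% interval 0.02 to 0.72) had an unadjusted p of 0.0408 and an adjusted p of 0.107 by edgeR, and so did not pass.

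TOP3A (chromosome 12, 60443592 to 60468968) was at 29.7, 35.5 and 32.5 CPM in vehicle and at 34.3, 39.8, 36.3, 41.2 and 40.9 CPM after doxorubicin. Only doxorubicin 1 lay within the vehicle range, and the other 4 doxorubicin libraries were above it. Its log2 fold change was 0.24 (SE 0.13, 95% interval −0.06 to 0.54, adjusted p = 0.204 by edgeR). TOP3A overlaps the gene MIEF2 on the other strand, and whether counting used the strand is not given in the sources used here. MIEF2 had 247 to 457 reads in vehicle and 520 to 802 after doxorubicin (log2 fold change 0.55, SE 0.25, adjusted p = 0.132). Reads from the stretch that the 2 genes share may therefore have been counted for the wrong gene, and the size of that stretch was not measured. The ratio of TOP3A to TOP3B reads was close in the 2 groups (difference −0.12, exact permutation p = 0.429, adjusted p = 0.571, n = 3 and n = 5), with TOP3A at 58.3% to 62.2% of the pair per base in vehicle and 52.2% to 61.7% after doxorubicin.

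The 2 repair enzymes did not pass. TDP2 (chromosome 7, 19489381 to 19502437), which acts on type II adducts, was at 36.5, 39.9 and 31.5 CPM in vehicle and at 29.7, 37.1, 29.5, 32.8 and 33.5 CPM after doxorubicin. The groups overlapped. TDP2 was at −0.14 on the log2 scale (SE 0.14, adjusted p = 0.472 by edgeR), with an interval from 0.725-fold to 1.13-fold. TDP1 (chromosome 7, 111767094 to 111853262), which acts on TOP1 adducts, was at 1.43, 1.94 and 1.92 CPM in vehicle and at 1.69, 1.97, 1.26, 1.97 and 1.4 CPM after doxorubicin. It had only 20 to 39 reads per library, and its interval from 0.565-fold to 1.57-fold is wide (log2 value −0.09, SE 0.33, adjusted p = 0.861 by edgeR). The data leave room for a change of TDP1 in either direction within that interval, and no detection limit was worked out. The ratio of TDP1 to TDP2 reads did not pass either (difference 0.04, exact permutation p = 0.821, adjusted p = 0.821, n = 3 and n = 5), and TDP1 made up 1.78% to 2.74% of the pair per base across the 8 libraries.

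Over the 8 genes, 1 rose, 1 fell and 6 did not pass, with 3 positive and 5 negative log2 fold changes and a median of −0.07 against 0.02 over all tested genes. Groups did not overlap for 4 of the 8, TOP2B, TOP2A, TOP1 and TOP3B, where the share over all tested genes was 34.9%. The direction of the small changes depended on the scaling. Normalization factors were 0.839 to 0.874 in vehicle and 1.05 to 1.18 after doxorubicin, and with library size only the median of all genes moved by 0.357. In that fit TOP2B was at −0.12 (adjusted p = 0.566), TOP1 at −0.02, TOP3A at 0.60 (adjusted p = 0.0118), TOP3B at 0.73 (adjusted p = 0.0144) and TOP2A at 1.67 (adjusted p = 0.0142), and TOP1MT, TDP1 and TDP2 turned positive. Relative to the median of all genes in the same fit, TOP2B was at −0.49, TOP1 at −0.40, TOP3A at 0.22, TOP3B at 0.35 and TOP2A at 1.29.

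**Figure D3:**
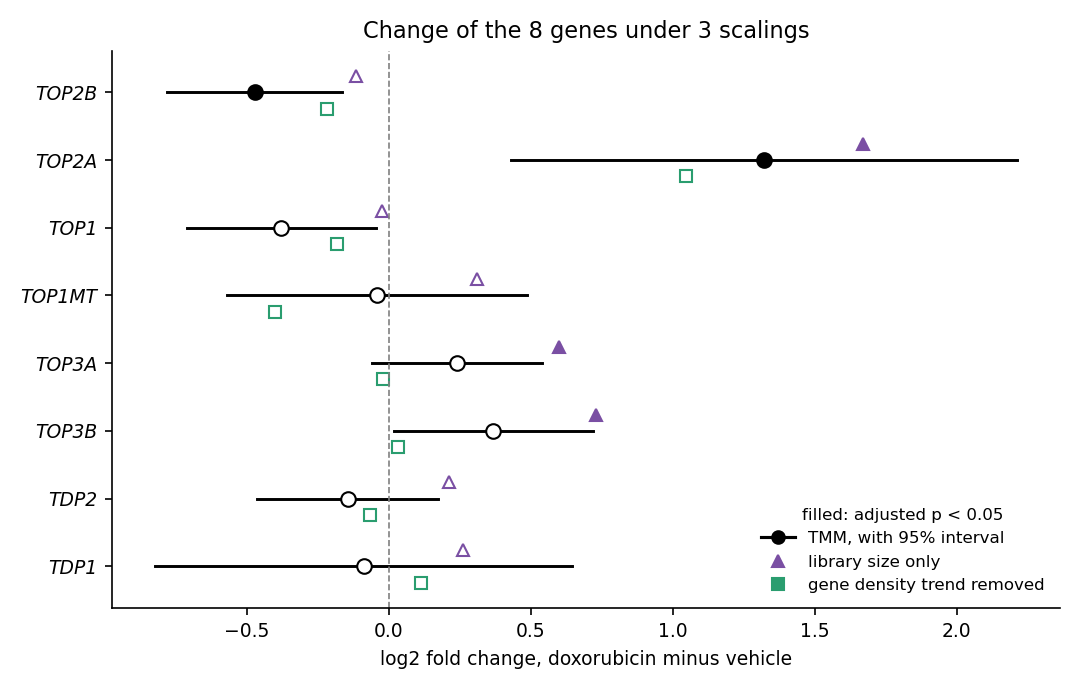
Log2 fold change (doxorubicin minus vehicle) of the 8 genes with TMM scaling (circles, with 95% interval), with library size only (triangles) and with the gene density trend taken out (squares); filled symbols have an adjusted p under 0.05. TOP2A lies to the right of 0 in all 3, TOP2B to the left in all 3, and TOP1MT, TOP3A, TDP1 and TDP2 change side in at least 1.

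The genes also differ in their surroundings, which the choice of names did not use. TOP2B had 4 protein-coding genes with midpoints within 500 kb (itself included), TDP1 had 7, TOP1 had 8 and TDP2 had 13, all below the median of 14 over tested protein-coding genes. TOP3A had 31, TOP2A 33, TOP3B 39 and TOP1MT 43. The quartiles over those genes were 8 and 26, so TDP2 was near the middle. The 4 genes below the median all had negative log2 fold changes. Of the 4 above the median 3 were positive and TOP1MT was negative (−0.04, SE 0.24). The share of negative values over all genes of like density was not measured. The values of TOP1MT and TDP1 (−0.09, SE 0.33) were smaller than their SE, and their signs turned in 6 and 2 of 18 alternatives. With the dependence on gene density taken out of each library, TOP2B was at −0.22 (adjusted p = 0.277), TOP1 at −0.18, TOP3B at 0.03 and TOP3A at −0.02, and TOP2A was at 1.05 (adjusted p = 0.0873). TOP1MT moved away from 0, to −0.40 (adjusted p = 0.230 by edgeR), while TDP1 was at 0.11 and TDP2 at −0.07. None of the 8 genes passed in that fit, in which 2861 genes were called in place of 3714. The part of gene density in the change of TOP2B was not tested.

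The genes with profiles nearest to those of the 8 were picked from 12135 candidates, so small distances were bound to be found. Likeness was measured as the root mean square difference between 2 log2 CPM profiles, each centred on its own mean, over the 8 libraries. It is a description, and it says nothing of shared function. Nearest to TOP2A were PRC1, which bundles microtubules in cell division (0.267), the thromboxane receptor gene TBXA2R (0.270) and KIF4A, a mitotic kinesin (0.282), against a median of 0.850 over all candidates. TOP2B was nearest to the translation factor gene EIF1AX (0.0564), the kinase gene MAPKAPK5 (0.0578) and CCP110 (0.0603), with a median of 0.449. For TOP1 they were WDR26 (0.0491), TRIP12 (0.0532) and AP4E1 (0.0540), and for TOP1MT they were FAM173B (0.0826), TMEM147 (0.122) and TEAD2 (0.133). TOP3A was most like CIAPIN1 (0.0322), ZNF526 (0.0581) and ENSA (0.0594), and TOP3B was most like GRK2 (0.0691), RELL1 (0.0730) and VPS37B (0.0777). TDP1 came closest to PRMT1 (0.0624) and ALAD (0.0795), and TDP2 to SMAP1 (0.0688), ZFAND3 (0.0752) and DDX47 (0.0776). Among the 8 themselves the closest pair was TOP3A with TOP3B (0.174) and the most distant was TOP2A with TOP2B (0.947).

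TOP2B sits with CTCF and the cohesin ring at the anchors of chromatin loops. Of 10 CTCF and cohesin genes, 0 rose, 5 fell and 5 did not pass. All 10 had negative values, with −0.49 as their median, where 11.3% of all tested genes fell. RAD21, the subunit that closes the ring, was at 265, 219 and 246 CPM in vehicle and at 159, 119, 115, 134 and 115 CPM after doxorubicin. It fell to 0.528-fold (log2 fold change −0.92, SE 0.17, adjusted p = 0.00832 by edgeR) and passed in all 18 alternatives. The cohesin regulators PDS5B (−0.73, SE 0.15, adjusted p = 0.0120) and PDS5A (−0.48, SE 0.15, adjusted p = 0.0414) fell too. The other 2 calls, chosen here after their values were seen, were the cohesin subunits STAG2 (−0.53) and STAG1 (−0.56), and CTCF itself was at −0.22 (adjusted p = 0.331). The subunits SMC1A (−0.01, adjusted p = 0.969) and SMC3 (−0.34, adjusted p = 0.211), also named after their values were seen, did not pass. With library size only RAD21 alone passed and the median was −0.14. Without the density trend PDS5A (0.108), STAG2 (0.202) and STAG1 (0.206) did not pass. PDS5B did not pass without vehicle 1 (0.0628) or 3 (0.0609), and PDS5A reached 0.178 and STAG2 0.160 without vehicle 1 and STAG1 0.136 without vehicle 3. PDS5A passed in 8, STAG2 in 7 and STAG1 in 7 of 18 alternatives.

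Besides TDP2, the repair of type II adducts and breaks involves the MRE11, RAD50 and NBN complex and end joining. Of 12 such genes, 0 rose, 1 fell and 11 did not pass, with all 12 negative and a median of −0.30. Over all tested genes 11.3% fell, so 1 in 12 is near the background. NBN was at 35.4, 31.6 and 33.8 CPM in vehicle and at 15.7, 16.5, 16.9, 12.2 and 25.4 CPM after doxorubicin, with no overlap. Its log2 fold change was −0.95 (SE 0.21, adjusted p = 0.0149 by edgeR). That call did not hold without vehicle 1 (0.0669) or 3 (0.0629), with library size only (0.0697), where the list median was 0.06, or without the density trend (0.0511).

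TOP2A works with condensin to fold chromosomes for mitosis. Of 15 condensin and mitotic genes, 2 rose, 0 fell and 13 did not pass, with 11 positive and a median of 0.42. The share that rose was near the 13.6% over all tested genes. MKI67 rose 3.93-fold (log2 fold change 1.97, SE 0.30, adjusted p = 0.00598 by edgeR) and passed in all 18 alternatives. CDK1 rose 3.93-fold as well (SE of log2 0.53, adjusted p = 0.0262), though not without vehicle 1 (0.0976), 2 (0.0852) or 3 (0.0811). The condensin subunits SMC2 (0.07) and SMC4 (−0.01) were near 0. NCAPG (0.75) and NCAPD2 (0.31) were positive, NCAPD3 (−0.24) and NCAPH (−0.46) were negative, and no condensin subunit passed. Genes named here beyond the 2 calls were chosen after their values were seen.

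Of 13 genes that repair TOP1 adducts, 2 passed as higher, 2 as lower and 9 did not pass, with a median of −0.07. These shares are near those over all tested genes (13.6% higher and 11.3% lower). FEN1, a flap nuclease, rose 1.70-fold (SE of log2 0.23, adjusted p = 0.0370 by edgeR), and ERCC4, the nuclease subunit XPF, fell by 0.95 on the log2 scale (SE 0.26, adjusted p = 0.0290). The repair polymerase gene POLB, named after its value was seen, fell as well (−0.56, SE 0.17, adjusted p = 0.0376). Each of these 3 calls was lost without vehicle 1, with adjusted p of 0.110 for FEN1, 0.0983 for ERCC4 and 0.0615 for POLB, and without vehicle 2 (0.103, 0.0810 and 0.122). They were also lost without vehicle 3 (0.107, 0.0901 and 0.131) or doxorubicin 3 (0.0731, 0.0562 and 0.0771), and without the density trend FEN1 (0.126), ERCC4 (0.0589) and POLB (0.0633) did not pass. With library size only 3 genes of the list passed as higher and 0 as lower.

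The partners of the TOP3 enzymes had 0 higher, 1 lower and 5 not passing of 6, with a median of −0.27, where 11.3% of all tested genes fell. BLM, the helicase that works with TOP3A, was at 8.07, 6.17 and 7.47 CPM in vehicle and at 4.69, 3.08, 3.08, 3.79 and 2.45 CPM after doxorubicin. It fell to 0.473-fold (log2 fold change −1.08, SE 0.25, adjusted p = 0.0169 by edgeR), and this was lost without vehicle 1 (0.0789) or 3 (0.0717) and with library size only (0.0514).

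Around TOP1MT, the genes that copy and transcribe mitochondrial DNA had 0 higher, 5 lower and 5 not passing of 10, with a median of −0.76. The share over all tested genes was 11.3% lower. TEFM, an elongation factor of mitochondrial transcription, was at 19.7, 19.0 and 19.1 CPM in vehicle and at 10.5, 9.55, 7.28, 12.2 and 8.45 CPM after doxorubicin. It fell to 0.498-fold (log2 fold change −1.01, SE 0.19, adjusted p = 0.00871 by edgeR) and passed in all 18 alternatives. SSBP1, the mitochondrial single-strand binding protein (−0.74, SE 0.13, adjusted p = 0.00852), and TFB2M (−0.80) fell too, as did TFAM (−0.96) and MGME1 (−0.78), named here after their values were seen. SSBP1 did not pass without vehicle 3 (0.0531), TFB2M without vehicle 1 (0.0594), TFAM without vehicle 1 (0.0628) or 3 (0.0589), and MGME1 reached 0.136 without vehicle 3. With library size only 1 gene of the list passed as higher and 3 as lower, with a median of −0.39.

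Ligases that mark topoisomerases with ubiquitin or SUMO had 0 higher, 3 lower and 8 not passing of 11, with a median of −0.24. Across all tested genes 11.3% were lower. CUL3, a scaffold of ubiquitin ligases, fell by 0.58 (SE 0.14, adjusted p = 0.0183 by edgeR), PIAS1, a SUMO ligase, fell by 0.64 (SE 0.20, adjusted p = 0.0429) and RNF2, a Polycomb ligase, fell by 0.66 (SE 0.21, adjusted p = 0.0466). None of the 3 passed with library size only (adjusted p = 0.218, 0.312 and 0.302), where the list had 1 higher and 0 lower. Without the density trend they were at 0.108, 0.125 and 0.167. All 3 were lost without vehicle 1 (0.0818, 0.186 and 0.156) or 3 (0.0854, 0.117 and 0.116). PIAS1 was also lost without doxorubicin 2 (0.0704), 3 (0.0683) or 4 (0.0717). RNF2 passed in only 6 of 18 alternatives, and it was lost without any 1 library other than doxorubicin 5 (adjusted p up to 0.156), with RLE factors (0.0509) and without a filter (0.0552).

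**Figure D4:**
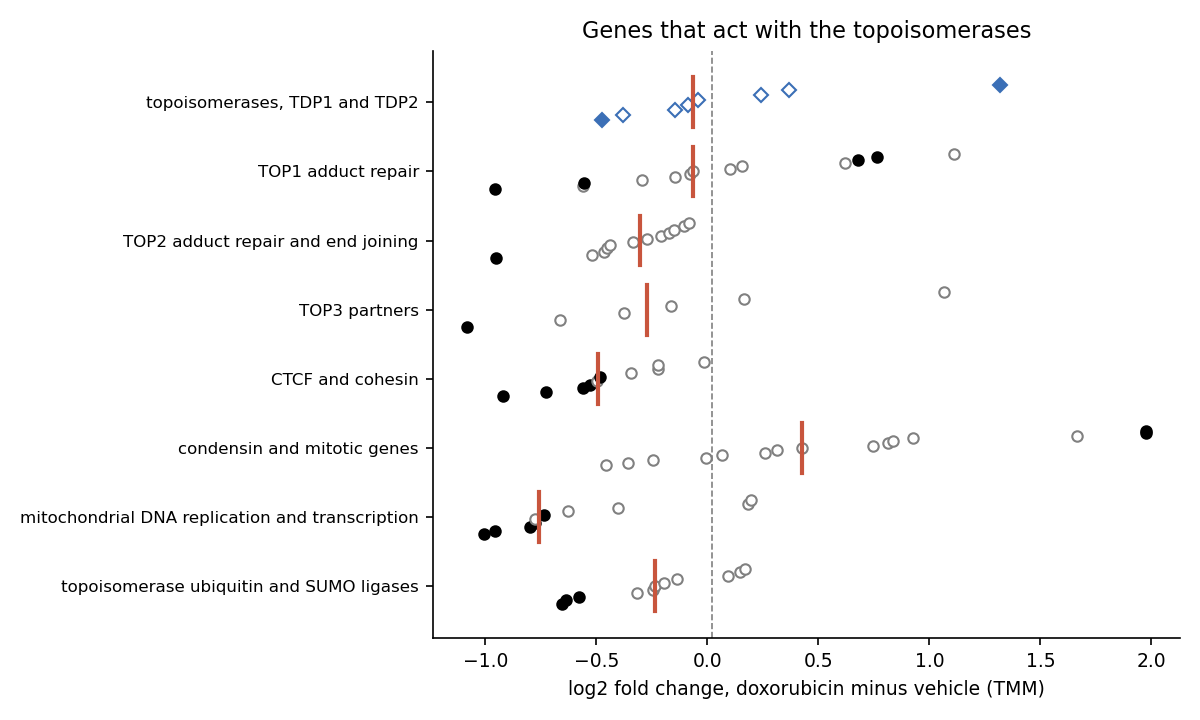
Log2 fold change (doxorubicin minus vehicle, TMM scaling) of each tested gene in 7 lists of partner genes and of the 8 topoisomerase and phosphodiesterase genes (diamonds); filled symbols have an adjusted p under 0.05, red bars are list medians and the dashed line is the median of all tested genes (0.02). List medians run from −0.76 for mitochondrial DNA replication and transcription to 0.42 for condensin and mitotic genes.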

How the data were processed

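The authors deposited raw read counts per gene, 1 column per sample, matched to the samples by title. The sources used here name no aligner, counting tool or strand setting. Gene positions are on Sscrofa11.1, where the deposited starts and ends of the 8 genes match RefSeq. The genes and lists were chosen with earlier results of these data known. The test was that of edgeR 4.0.16 (R 4.3.3) on the counts: filterByExpr (minimum count 10, minimum total 15), which left 14938 genes, TMM scaling and the robust quasi-likelihood test, two-sided, treatment as the only term, with Benjamini-Hochberg adjusted p under 0.05 over all tested genes. The fit was tested on simulated data. CPM are counts per TMM-scaled library size. Ratios used log2 of reads plus 0.5 and an exact permutation test. Partner genes were named by smallest p, up to 3 past the threshold in each list. Profiles were compared with protein-coding genes that have a symbol and at least 1 CPM on average, and the 3 nearest are named. A few genes that these rules pick are not reported here. MRE11A was read under MRE11. Alternatives were other scalings and filters, removal of lowess trends (span 0.3) with gene length and with gene density, the number of protein-coding neighbours within 500 kb, a replicate block, DESeq2 1.42.0, voom of limma 3.58.1 using quality weights, and leaving out each library.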

Additional observations from a re-analysis of the deposited data

How the results depend on the processing

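Over all genes 3714 passed, against 8087 by limma voom with quality weights and 649 to 4737 with 1 library left out (649, 1969 and 712 without vehicle 1, 2 and 3). With library size only 3 of the 8 genes were higher and 0 lower, and the split over all genes was 4093 higher and 499 lower against 2033 and 1681. No gene of the 8 was called higher without the gene density trend (0) or with the replicate block (0), and 0 were called lower without the density trend, with the block or without a filter, while voom called 2 lower. With 1 library left out the counts were 0 to 1 higher and 0 to 1 lower. The causes were not tested. Without a filter more genes were tested, the median of all genes moved by 0.193 and the SE of TOP2B was 0.168 against 0.138.

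TOP2A was at 0.74 with the replicate block (adjusted p = 0.0784), 0.69 by voom (0.0855), 1.05 without the density trend (0.0873) and 1.08 to 1.5 with 1 library left out. TOP2B was at −0.12 with library size only, −0.47 without a filter (0.0788), −0.45 with the block (0.0697), −0.22 without the density trend and −0.52 to −0.43 with 1 library left out. By voom TOP1 passed at −0.37 (0.00950) and TOP3A at 0.27 (0.0259). With library size only TOP3A passed at 0.60 and TOP3B at 0.73, and TOP1MT turned to 0.31, TDP1 to 0.26 and TDP2 to 0.21. TOP1MT also turned to 0.0538 with the block and 0.27 by voom, and ran from −0.15 to 0.16 with 1 library left out, positive without vehicle 2 (0.16) and doxorubicin 3 (0.06) and 5 (0.02). TDP2 turned to 0.0549 by voom, TDP1 to 0.11 and TOP3A to −0.0194 without the density trend. The log2 ratio of TDP1 to TDP2 ran from −0.12 to 0.20 with 1 library left out, negative without vehicle 1 (−0.12) and doxorubicin 1 (−0.00422) and 4 (−0.02). The smallest exact p is then 0.0952 or 0.0571. In the block fit doxorubicin 4 and 5 share a number with no vehicle library and so do not enter the contrast. Same-numbered libraries did not deviate together (r = 0.0425, 0.00205 and −0.00312), so the numbers were not taken to pair the samples.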

Other observations

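Topoisomerases are known for their part in the transcription of long genes, so log2 fold changes were also read by genomic span, a description added after the data were seen. Among tested protein-coding genes, the median was 0.26 for 5459 genes under 20 kb, −0.06 for 3533 of 20 to 50 kb, −0.15 for 2198 of 50 to 100 kb and −0.13 for 2428 over 100 kb. Calls ran 20.3% higher and 6.78% lower in the shortest class, and 7.62% higher and 14.1% lower in the longest. With library size only the medians were 0.62, 0.30, 0.21 and 0.22, all shifted with the median of all genes. Without doxorubicin 5 they were 0.21, −0.06, −0.13 and −0.08. After removal of the trend with gene density they were 0.12, −0.06, −0.07 and 0.03. Of the 8 genes, TOP1 (89.4 kb), TDP1 (86.2 kb), TOP2B (67.3 kb) and TOP1MT (54.0 kb) span over 50 kb and all had negative log2 fold changes. Those of TDP1 (−0.09, SE 0.33) and TOP1MT (−0.04, SE 0.24) were smaller than their SE. Of all tested protein-coding genes of 50 to 100 kb, 59.0% had negative values. TOP2A (27.2 kb), TOP3A (25.4 kb) and TOP3B (17.4 kb) were positive, and TDP2, the shortest (13.1 kb), was negative. The part of topoisomerase activity in the pattern by span was not tested.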
